A study of Monascus purpureus with 6 samples.

Results

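The genes described here are 8 models of scaffold C5 that the study does not name in its text: evm.TU.C5.121, evm.TU.C5.122, evm.TU.C5.123, evm.TU.C5.125, evm.TU.C5.126, evm.TU.C5.129, evm.TU.C5.131 and evm.TU.C5.132, called C5.121 and so on below. They lie between the pigment genes that the study names or, in the case of C5.121 to C5.123, directly before the first of them, and they are 8 of the 7491 rows of the count table. The members were chosen by gene number within a window whose differences in expression, winter over YY-1, were already known, so that these differences are given as a description and not as a test. They are set beside C5.124, C5.127, C5.128, C5.133, C5.134, C5.135, C5.136 and C5.137. These 8 are called the named genes here, although the study's text does not name C5.136. The questions are which of the unnamed genes followed the named genes over the libraries, which did not, and where along the scaffold the run of genes changing together began.

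The winter strain was obtained from *Monascus purpureus* YY-1 by protoplast transformation with a plasmid that carries a hygromycin B resistance cassette, and it was kept for its low citrinin production. It is a single transformant, so that an effect of the insertion and a peculiarity of that clone cannot be told apart. YY-1 is the parental strain, a producer of food colorant, and did not receive the cassette. RNA came from mycelia harvested while pigment was being formed, and 3 libraries of winter and 3 of YY-1, replicates a, b and c of each strain, were sequenced from biological triplicates. The total counts were 15194009 to 16004947 in winter and 9661178 to 10595943 in YY-1. At this depth every one of the 8 genes had at least 686 counts in each library, and all of them passed the filter on low counts, as did 7355 genes in all. A read count measures RNA in the whole mycelium, so that fewer hyphae transcribing a gene and less RNA in each of them cannot be told apart.

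*Monascus* pigments are azaphilones, built from a polyketide chain made by a polyketide synthase (PKS) and a fatty acyl chain made by a fatty acid synthase (FAS), which are joined and then modified by oxidoreductases. In filamentous fungi the genes of such a pathway often lie side by side on a chromosome and are switched on together by a transcription factor encoded among them. Such a cluster can also hold or border genes that do not take part. Of the named genes, C5.137 encodes the PKS, C5.127 and C5.128 the FAS subunits, C5.134 a 3-O-acetyltransferase, and C5.133, C5.124 and C5.135 oxidoreductases. C5.136 is not in the study's text and is labelled only in its heat map of transcription factor genes, while the supplement gives it an ADP-ribosyltransferase term, so no role is assigned to it here. For 4 of the unnamed genes Gene Ontology terms are listed in the study's supplement, and these are broad. C5.132 carries FAD binding and an oxidoreductase acting on CH-CH groups, beside terms for isoprenoid synthesis. C5.123 carries FAD binding and 3-hydroxyacyl-CoA dehydrogenase activity, C5.125 acetyltransferase activity together with protein catabolism, and C5.122 carbohydrate metabolism. No role is given here for C5.121, C5.126, C5.129 and C5.131.

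Of the 8 genes, 6 had higher and 2 had lower expression in the winter strain. In edgeR's quasi-likelihood test over all 7355 tested genes, with Benjamini-Hochberg adjustment and a threshold of 0.05, C5.121, C5.122, C5.123, C5.125, C5.131 and C5.132 were called higher, a direction called for 22.5% of all tested genes. C5.126 and C5.129 were called lower, as were 25.5% of all tested genes, and 48.0% of all tested genes were called in one direction or the other. Since the window was set with this contrast known, nothing is read from these 6 and 2 calls beyond the values themselves. All 8 named genes were called higher. The 8 unnamed genes had a median log2 fold change of 1.44, beside 1.76 in the 8 named genes and -0.03 over all tested genes. The winter and YY-1 libraries did not overlap in any of the 8 unnamed genes, and they did not overlap in 57.8% of all tested genes. Levels are given below as TMM-normalized CPM, which are corrected for sequencing depth but not divided by gene length, so they are compared between libraries for one gene and not between genes.

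**Figure D1:**
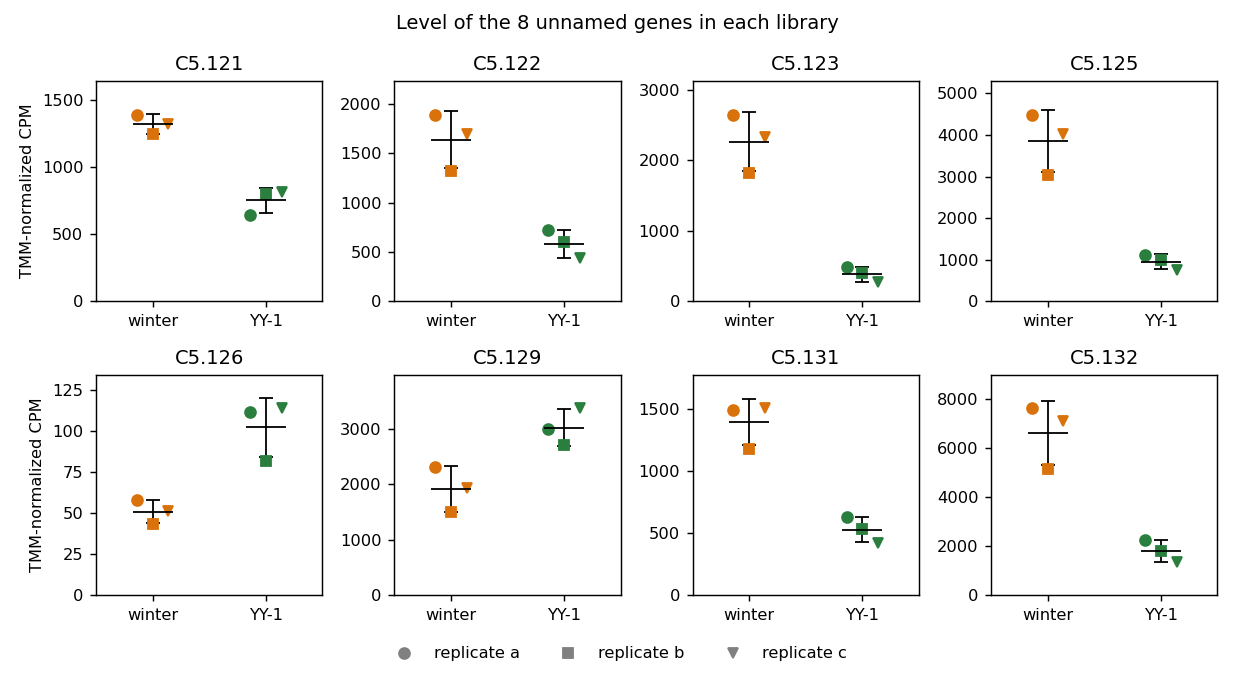
TMM-normalized CPM (vertical axis, starting at 0) of each unnamed gene in the 3 winter and the 3 YY-1 libraries, with a circle, square or triangle for replicate a, b or c and a bar for the mean ± SD of each strain. Winter lies above YY-1 in 6 genes and below it in C5.126 and C5.129, and in C5.122, C5.123, C5.125, C5.131 and C5.132 replicate c is the lowest YY-1 library.

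The members nearest to the oxidoreductase genes C5.133 and C5.124 rose most. C5.132, with the FAD-binding and oxidoreductase terms, lies directly before C5.133. It had 7613, 5145 and 7114 CPM in winter a, b and c, against 2228, 1804 and 1359 CPM in YY-1 a, b and c. The lowest winter library was thus winter b and the lowest YY-1 library YY-1 c, and the strains were well separated. The means were 6624 ± 1305 CPM in winter and 1797 ± 434 CPM in YY-1 (SD, n = 3 each), and the log2 difference was 1.88 (SE, the standard error, 0.27).

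C5.123, annotated with FAD binding and a dehydrogenase activity, is the neighbour of C5.124, the ortholog of *azaH*, a monooxygenase gene of azaphilone synthesis in *Aspergillus*. C5.123 had 2645, 1813 and 2328 CPM in winter a, b and c and 480, 407 and 267 CPM in YY-1 a, b and c. The order of the libraries within each strain was that of C5.132. Its log2 fold change of 2.56 (SE 0.26), a 5.88-fold increase, was the largest among the 8 genes, and only C5.124 among the named genes had a larger one, 2.62 (SE 0.27).

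C5.125 lies on the other side of C5.124 and carries the acetyltransferase term. Its level was 4489, 3034 and 4035 CPM in winter a, b and c and 1118, 983 and 764 CPM in YY-1 a, b and c. Again winter b and YY-1 c were the lowest of their strains, and the log2 fold change was 2.01 (SE 0.24), a 4.03-fold increase.

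C5.122, annotated with carbohydrate metabolism, had 1893, 1326 and 1697 CPM in winter a, b and c, against 719, 599 and 438 CPM in YY-1 a, b and c. Its mean was 2.80-fold higher in winter (log2 fold change 1.48, SE 0.24). C5.131, for which no role is given, had 1492, 1178 and 1502 CPM in winter a, b and c and 626, 531 and 423 CPM in YY-1 a, b and c. Its log2 fold change was 1.40 (SE 0.21). Both genes had the smaller rise seen in C5.128 (1.38), C5.134 (1.34) and C5.136 (1.20) rather than that of C5.123 and C5.124, and in both the lowest winter library and the lowest YY-1 library were again winter b and YY-1 c.

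C5.121, the first gene of the window, rose least. It had 1390, 1243 and 1323 CPM in winter a, b and c and 646, 799 and 815 CPM in YY-1 a, b and c, so that YY-1 c was its highest YY-1 library and not its lowest. The means were 1319 ± 73.2 CPM in winter and 753 ± 93.7 CPM in YY-1 (SD, n = 3 each), a 1.75-fold increase (log2 fold change 0.81, SE 0.18).

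The 2 genes with lower expression in winter stand apart in direction from every named gene. C5.126, which lies between C5.125 and the FAS gene C5.127, had 57.8, 43.5 and 51.4 CPM in winter a, b and c, against 111.3, 81.7 and 114 CPM in YY-1 a, b and c. These values rest on 686 to 849 counts in winter and 953 to 1131 counts in YY-1, the fewest of the 8 genes. The log2 fold change was -1.01 (SE 0.18), a 2.01-fold lower mean in winter, between neighbours whose log2 fold changes were 2.01 and 1.66.

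C5.129 lies directly after the FAS gene C5.128. It had 2309, 1492 and 1935 CPM in winter a, b and c and 2993, 2701 and 3364 CPM in YY-1 a, b and c, without overlap between the strains. Its log2 fold change of -0.66 (SE 0.22) was the smallest in size among the 8 genes, and its call depended on single libraries. In edgeR it missed the threshold when YY-1 replicate a was left out (log2 fold change -0.63, adjusted p = 0.0901), and likewise for YY-1 replicate c (-0.57, adjusted p = 0.0684), winter replicate b (-0.51, adjusted p = 0.0923) or winter replicate c (-0.67, adjusted p = 0.114). The other 7 genes stayed below that threshold with any of the 6 libraries left out.

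C5.130, which follows C5.129 and for which no role is given here, was not called. It had 1518, 1172 and 1411 CPM in winter a, b and c and 1303, 1416 and 2143 CPM in YY-1 a, b and c, with a log2 fold change of -0.25 (SE 0.23, edgeR adjusted p = 0.412). The strains overlapped in C5.130, and YY-1 c was far above the other YY-1 libraries. Leaving out YY-1 c gave a log2 fold change of 0.0080 (adjusted p = 0.977 in edgeR). C5.129 and C5.130 therefore lay side by side inside the cluster without a rise, though only C5.129 was called lower. They were flanked by C5.128 on one side and C5.131 on the other, both of which were called higher.

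**Figure D2:**
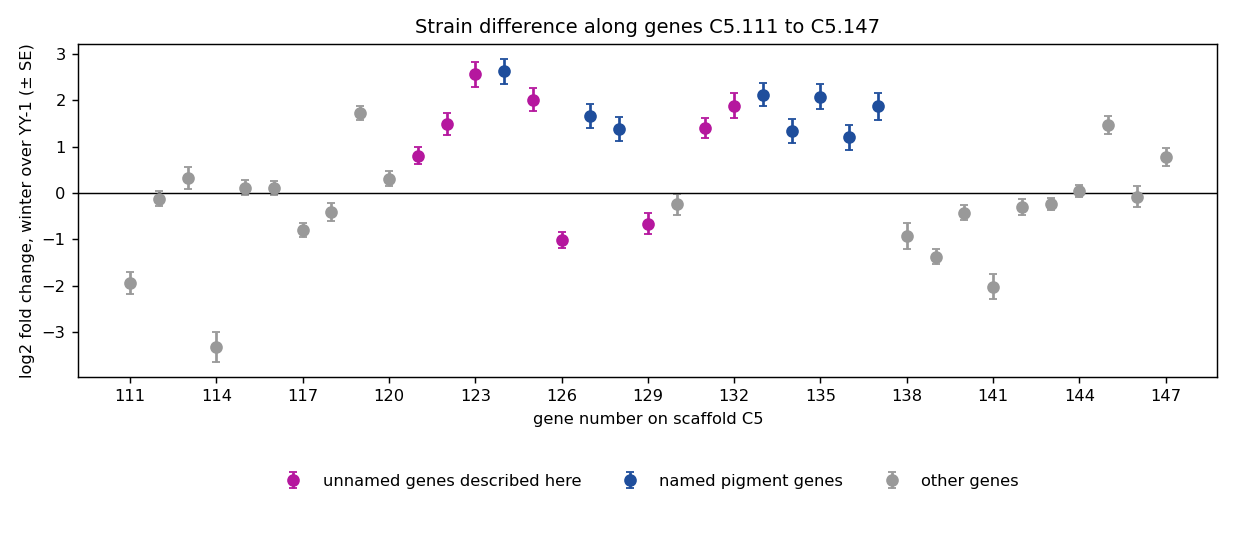
Log2 fold change of winter over YY-1 (vertical axis, error bars ± SE) for C5.111 to C5.147 by gene number (horizontal axis), with unnamed genes, named pigment genes and other genes in separate colours. From C5.121 to C5.137 the points lie above 0 except for C5.126, C5.129 and C5.130, while C5.120 is at 0.31 and C5.138 at -0.93.

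Between C5.120 and C5.124 the step into the run was gradual in fold change, whereas C5.119, before C5.120, stood at 1.72. Counted outward from C5.124 over consecutive gene numbers called higher, the run held 5 genes, from C5.121 to C5.125, where the fall of C5.126 ended it. The log2 fold changes climbed along the scaffold from 0.31 in C5.120 through 0.81 in C5.121 and 1.48 in C5.122 to 2.56 in C5.123 and 2.62 in C5.124. C5.120, the gene just outside, had 463, 493 and 475 CPM in winter a, b and c and 354, 408 and 390 CPM in YY-1 a, b and c. It did not overlap between the strains but did not pass in edgeR (SE 0.15, adjusted p = 0.121). It passed in DESeq2's Wald test (adjusted p = 0.0311), in which the run held 7 genes and began at C5.119. At an edgeR adjusted p below 0.001 the run held 4 genes and began at C5.122.

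C5.119 was itself higher in winter, with 71.8, 91.0 and 72.2 CPM in winter a, b and c and 25.4, 23.7 and 22.3 CPM in YY-1 a, b and c, and a log2 fold change of 1.72 (SE 0.15, edgeR adjusted p = 1.89e-05). In C5.119, winter b was the highest winter library, whereas it was the lowest in all 16 named and unnamed genes. Of the 10 genes from C5.111 to C5.120, C5.119 was the only one called higher, 3 were called lower and 6 were not called. On the far side, 4 of the 10 genes from C5.138 to C5.147 were called lower and 2 higher. Over all tested genes, 25.5% were called lower and 22.5% higher, so nothing is read from these counts of flanking genes. C5.138, next to the PKS gene, had 178, 97.0 and 156 CPM in winter a, b and c and 223, 218 and 379 CPM in YY-1 a, b and c. Its log2 fold change was -0.93 (SE 0.27, edgeR adjusted p = 0.0175), and the call was lost without YY-1 replicate c (-0.62, adjusted p = 0.0554) or winter replicate b (-0.71, adjusted p = 0.0533). C5.139, the gene after it, was also called lower, with a log2 fold change of -1.37.

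To ask how closely each unnamed gene followed the named ones, the log2(CPM + 1) profile of each gene over the 6 libraries was centred on its own mean and compared with the mean profile of the 8 named genes. The measure is the root mean square difference, in log2 units, and for a named gene the profile of the other 7 was used. A scaling factor of a library shifts both profiles alike and leaves this distance nearly unchanged. The named genes lay at 0.09 (C5.137) to 0.48 (C5.124). C5.124 alone set the upper end, and the next named gene was C5.136 at 0.35. C5.132 lay at 0.07, closer than any other of the 7355 tested genes, named genes included. C5.125 lay at 0.13, C5.122 at 0.16, C5.131 at 0.22 and C5.123 at 0.39, all within the range of the named genes. For C5.123 this held only through its neighbour C5.124. C5.121 (0.61), C5.129 (1.28) and C5.126 (1.43) lay outside that range. So 5 of the 8 unnamed genes were within the range of the named genes, as were 3.92% of the 7347 tested genes outside the named set. This distance includes the strain difference that was known when the window was set.

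**Figure D3:**
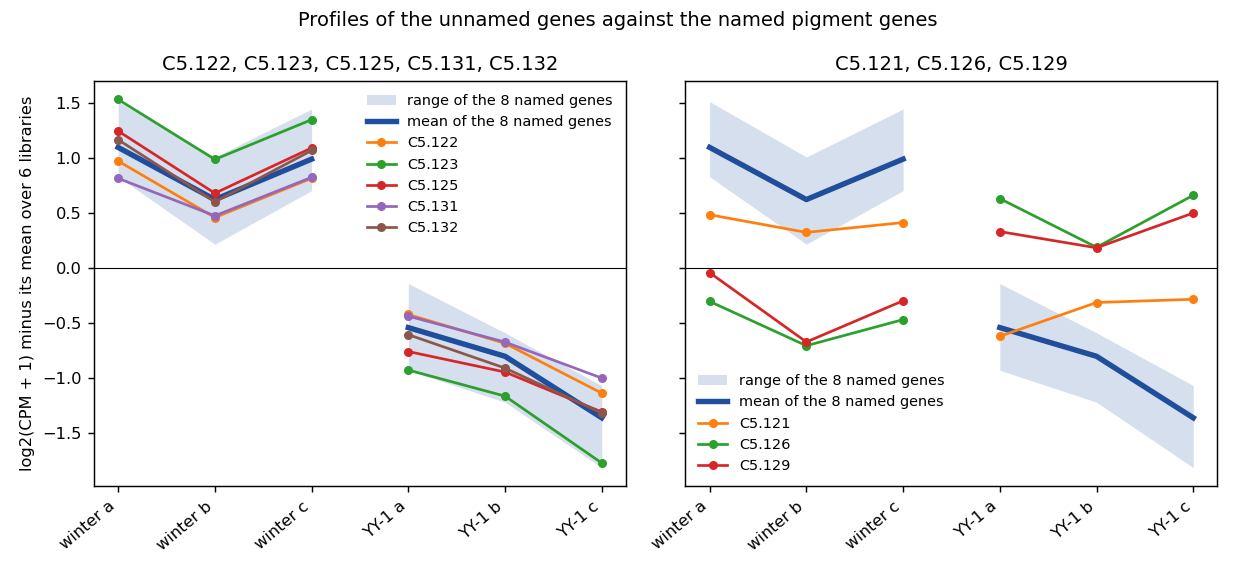
Centred log2(CPM + 1) (vertical axis) in the 3 winter and 3 YY-1 libraries (horizontal axis), with the mean of the 8 named genes as a thick line and their range as a band. The left panel holds the 5 unnamed genes at a distance of 0.07 to 0.39 from that mean, and the right panel C5.121, C5.126 and C5.129, at 0.61 to 1.43.

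The deviations within a strain do not enter the strain difference. They come from the same 6 libraries whose earlier results were known when the members were chosen, so they too are a description and not a test. After the mean of each strain had been removed as well, the distance from the named genes was 0.03 for C5.123, 0.04 for C5.122, 0.05 for C5.132, 0.08 for C5.125 and 0.09 for C5.131. The named genes lay at 0.03 to 0.11 on this measure and the median of all tested genes was 0.32. C5.126 (0.32), C5.129 (0.32) and C5.121 (0.35) lay near that median. The same 5 unnamed genes were therefore within the range of the named genes, as were 1.54% of the 7347 genes outside the named set. Neither that share nor the median of all tested genes was matched for level, and sampling noise in genes with few counts adds to this distance. Counted outward from C5.124 over consecutive gene numbers, the genes within the range on either measure thus began at C5.122, since C5.121 lay outside it. Of the genes C5.111 to C5.120 and C5.138 to C5.147, C5.119 (0.33) and C5.145 (0.24) were within the range of the distance that includes the strain difference. On the within-strain measure none of these flanking genes was within the range, with C5.119 at 0.32 and C5.145 at 0.13. For C5.126 and C5.129 the separation lay mainly in YY-1 c. There the 5 genes were at 60.1% to 73.1% of the mean of YY-1 a and b and the named genes at 55.0% to 69.1%, while C5.121, C5.126 and C5.129 were at 113% to 118.2%. The log2 difference of YY-1 c from YY-1 a and b placed the 5 genes at the 2.73 to 9.86 percentile of all tested genes and the named genes at the 1.59 to 6.89 percentile.

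Without YY-1 replicate c, the within-strain distance was 0.07 for C5.126 and 0.07 for C5.129, inside the range of the named genes, and 7 of the 8 genes were within it, as were 20.4% of the other genes. C5.121 stayed outside at 0.21. The distance that includes the strain difference then placed 6 of the 8 genes within the named range, with C5.121 at 0.40, beside 10.4% of the other genes. Without winter replicate b, 3 of the 8 genes were within the within-strain range, since that range then ended at 0.08 and C5.125 (0.09) and C5.131 (0.10) fell just outside.

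**Figure D4:**
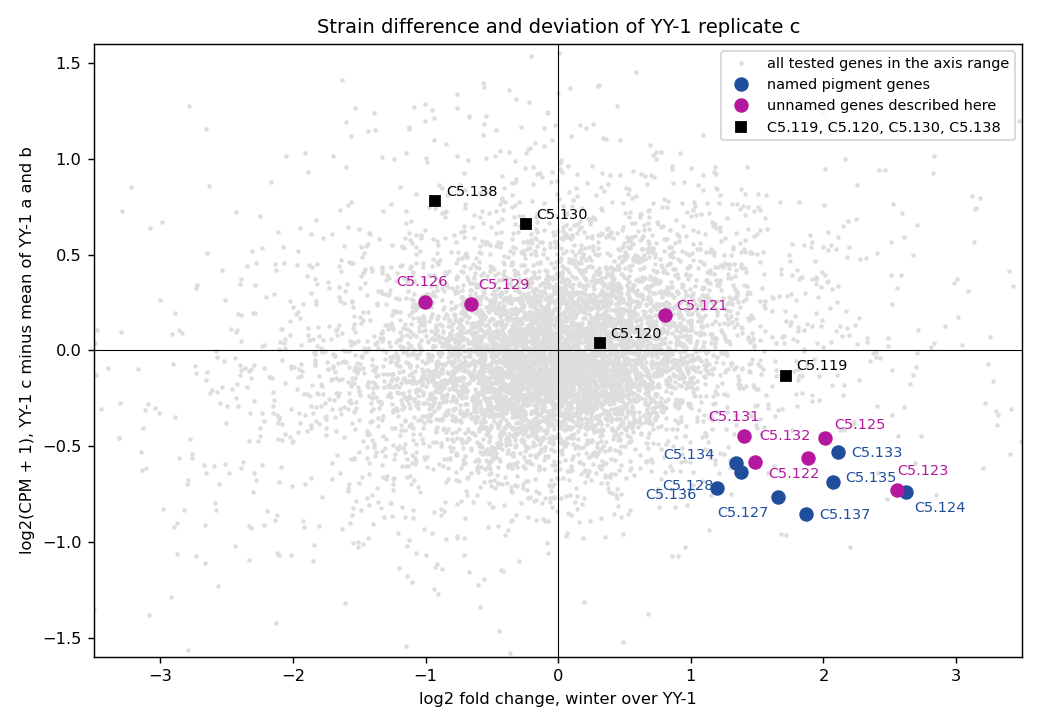
Log2 fold change of winter over YY-1 (horizontal axis) against the log2(CPM + 1) of YY-1 c minus the mean of YY-1 a and b (vertical axis), for the 8 unnamed genes, the 8 named genes and 4 neighbours over all tested genes in grey. The 5 unnamed genes C5.122, C5.123, C5.125, C5.131 and C5.132 lie with the named genes at the lower right, C5.121 lies above 0 on both axes, and C5.126 and C5.129 lie at the upper left.

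The ratio of raw counts between neighbours in the same library does not depend on library size. C5.123 over C5.124 was 1.23, 1.19 and 1.13 in winter a, b and c and 1.21, 1.26 and 1.25 in YY-1 a, b and c. The largest of these ratios was 1.112 times the smallest, although the means of C5.123 and C5.124 differed 5.88-fold and 6.14-fold between the strains, and the strains overlapped. C5.124 was also the nearest of all tested genes to C5.123 by profile, at a distance of 0.05. C5.132 over C5.133 was 1.24, 1.14 and 1.22 in winter a, b and c and 1.49, 1.35 and 1.39 in YY-1 a, b and c, without overlap between the strains. C5.122 over C5.123 was 0.72, 0.73 and 0.73 in winter a, b and c, against 1.498, 1.472 and 1.641 in YY-1 a, b and c, and was thus steady within a strain but different between the strains. The files hold no coordinates, and no source used here gives the strand of the reads, so that reads shared by overlapping gene models cannot be told apart from the RNA of each gene.

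At the edge of the window the ratios were less steady. C5.121 over C5.122 ran at 0.73, 0.94 and 0.78 in winter a, b and c and at 0.90, 1.33 and 1.86 in YY-1 a, b and c, a 2.54-fold range with overlap between the strains. C5.121 over its other neighbour C5.120 was 3.004, 2.523 and 2.786 in winter a, b and c and 1.82, 1.96 and 2.09 in YY-1 a, b and c, without overlap. C5.121 thus kept a constant proportion to neither side. C5.126 over C5.125 was 0.01 in each winter library and 0.10, 0.08 and 0.15 in YY-1 a, b and c. C5.129 over C5.130 was 1.52, 1.27 and 1.37 in winter a, b and c and 2.30, 1.91 and 1.57 in YY-1 a, b and c, without overlap.

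Set against the geometric mean of the 8 named genes in the same library, C5.132 had a log2 ratio of 0.98, 0.89 and 0.99 in winter a, b and c and 0.85, 0.80 and 0.95 in YY-1 a, b and c. It was the only one of the 8 genes whose ratio overlapped between the strains. The ratio was higher in winter by 0.77 (log2) for C5.123 and by 0.21 for C5.125. It fell by 0.31 for C5.122, by 0.40 for C5.131 and by 0.99 for C5.121. The named genes themselves ranged between -0.59 (C5.136) and 0.84 (C5.124) on this scale, with C5.133 next below C5.124 at 0.32. The first 4 of these differences thus lay within the spread among the named genes, that of C5.123 only through C5.124. The difference of C5.121 did not. For C5.129 the ratio fell by 2.48 and for C5.126 by 2.81. Without YY-1 replicate c the difference was -0.70 for C5.121, -2.17 for C5.129 and -2.49 for C5.126, and without YY-1 replicate a it was -1.28 for C5.121.

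Together the genes from C5.121 to C5.137 took 5.44%, 4.46% and 5.23% of all counts in winter a, b and c and 2.34%, 2.16% and 1.59% in YY-1 a, b and c. The 8 unnamed genes held 36.3% ± 0.67 of the counts of that stretch in winter and 41.9% ± 2.84 in YY-1 (SD, n = 3 each). Within the stretch, C5.129 was the gene with most counts in YY-1, with 15.8% ± 3.76 of them, and held 3.63% ± 0.23 in winter (SD, n = 3 each). In winter C5.132 had the most, with 12.6% ± 0.52, against 9.12% ± 0.94 in YY-1 (SD, n = 3 each). These are shares of reads, which also depend on the unknown lengths of the genes.

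Among the tested genes outside the named set, the 5 nearest to the mean profile of the named genes were C5.132 (0.07), C5.305 (0.11), C5.125 (0.13), C5.122 (0.16) and C2.329 (0.17). C5.305 is one of the citrate lyase genes, whose product supplies acetyl-CoA, and lies far from the cluster on the same scaffold. For C5.122 the nearest of all tested genes was C5.128 (0.06), for C5.125 it was C5.133 (0.07), for C5.131 it was C5.134 (0.06) and for C5.132 it was C5.125 (0.08). The nearest genes to C5.121, C5.126 and C5.129 lay outside the stretch, C2.831 at 0.05, C7.184 at 0.06 and C8.538 at 0.05, and none of the 10 nearest genes to any of these 3 was from C5.121 to C5.137. C5.126 and C5.129 were 0.19 apart. Profiles over 6 libraries leave many genes close to one another, so these neighbours are a description and say nothing of shared control.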

How the data were processed

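Mycelial RNA of 3 winter and 3 YY-1 cultures was sequenced by Illumina. The authors discarded reads of low quality, mapped the remainder with TopHat against predicted YY-1 transcripts, counted reads on unique exons with HTSeq and deposited raw counts, not normalized, in 7491 rows. The submitters' processing notes list TopHat2 2.0.8b and HTSeq 0.5.4p2, while the study's methods give other versions. How reads that fit several near-identical genes were treated is not given in the sources used here. None of the identifiers matched the reference gene table, which is for another strain.

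Counts were scaled by TMM, filtered with filterByExpr (136 rows removed) and compared by edgeR 4.0.16 (R 4.3.3) with strain as the only term. The standard error is the log2 fold change divided by the square root of F. The fit was tested on simulated counts, and the arithmetic of the distance was checked on a small made-up table without noise. Means and SDs are over 3 libraries. In an exact permutation test, 3 against 3 libraries cannot give a two-sided p below 0.1. With libraries scaled by their totals alone and not by TMM, replicates differed by more than sampling noise (median chi-square per gene 2.00 to 10.1, where noise gives 0.455). Across genes, deviations of libraries with the same letter had a Pearson's r of 0.101 for a, 0.300 for b and 0.125 for c, and those with different letters -0.345 to 0.208, the highest being winter c with YY-1 a. The letter thus does not clearly pair the libraries, the labels give nothing more, and it was used as a block in an alternative only.

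Genes named are the 8 members, the 8 named pigment genes, C5.130 and the 2 genes beyond each edge of C5.121 to C5.137. The 5 genes nearest to the named profile are named as well. C5.145 and the nearest gene to each member were added after values were seen. The rule also held 8 genes of a pathway scheme, which had been read from a picture and are not reported here. The members and lists were chosen with earlier results of these data known. Alternatives were other scalings (DESeq2 1.42.0 size factors, upper quartile, library totals, totals without C5.121 to C5.137), other filters, DESeq2's Wald test, the block, a stricter threshold, other pseudocounts (0.1 and 10 CPM), the median of the named genes, and each library left out. Distances and plots were made in Python 3.11.15 (matplotlib 3.10.9, numpy 2.4.6, scipy 1.17.1, pandas 2.3.3).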

Additional observations from a re-analysis of the deposited data

How the results depend on the processing

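The 6 genes with higher and the 2 with lower expression in winter kept their direction under all 18 alternatives. The stricter threshold, the other pseudocounts and the median of the named genes reuse the main fit and could not change a direction. At an adjusted p below 0.001, edgeR called 488 of all tested genes higher and 653 lower, and 5 and 0 of the 8 genes. With a library left out, between 1 and 2 of the 8 genes were called lower, C5.126 in each case, and between 3 and 7 were within the within-strain range of the named genes. The log2 fold change of C5.130, which was not called, lay between -0.35 and 0.0080 with a library left out and crossed 0 without YY-1 replicate c. With the replicate letter as a block, 1848 genes were called higher and 1993 lower, and no call changed among the 16 unnamed and named genes, C5.119, C5.120, C5.130 and C5.138. The run around C5.124 held 5 genes in all settings that could change it, other than DESeq2's Wald test (7) and the stricter threshold (4). The pseudocounts and the median of the named genes could not change it. Scaling by library totals moved the median log2 fold change over the 7355 genes to -0.13 and changed no call among the 8 genes. With 3 libraries a strain and one transformant, a difference between cultures and one between strains rests on few values, and C5.126 had the fewest counts.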
